A study of Mus musculus with 7 samples.

Results

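Expression of 10 genes of the circadian clock, of 37074 gene names on the array, was examined in the mammary gland of 7 mice, 3 of them wild-type and 4 PRA transgenic. The genes were Arntl, Clock, Npas2, Per1, Per2, Per3, Cry1, Cry2, Nr1d1 and Dbp, chosen by name, and 23 of the 56605 probes on the array carry one of these names. All animals were nulliparous adult FVB females of 20 to 25 weeks at diestrus, and each contributed 1 abdominal gland taken after its lymph nodes had been cut out. PRA transgenic mice are bigenic. A CMV promoter drives the yeast activator GAL-4 (CMV-GAL-4), which switches on a second transgene (UAS-PR-A), so that they carry additional PR-A, the shorter form of the progesterone receptor, in whichever cells the CMV promoter is active. Wild-type animals were their littermates, and the labels describe the transgenic gland as preneoplastic. The hour of the light and dark cycle at which glands were removed is not given in the sources used here.

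The circadian clock is a feedback loop of transcription. BMAL1, the protein of Arntl, pairs with CLOCK or its relative NPAS2, binds E-box sequences, and switches on the Per and Cry genes, whose proteins return to the nucleus and block that pair. The same pair switches on Nr1d1, whose protein REV-ERBα represses Arntl, and Dbp, whose protein carries the rhythm to output genes through D-box sequences. In most tissues Arntl RNA therefore peaks at the opposite phase to Per, Nr1d1 and Dbp RNA, and in the mammary gland, as elsewhere, levels of these genes depend on the hour of sampling.

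Each array measured 1 gland (Cy5) against Universal Mouse Reference RNA (Cy3), a pool of RNA from 11 mouse cell lines that was the same on every array, and the value given below is the log2 ratio of gland to reference. No dyes were swapped. The 7 arrays shared 1 slide, with wild-type glands hybridized in its row 1 and PRA transgenic glands in its row 2, and the effect of the row cannot be told apart from that of genotype. The comparison between genotypes with limma covered the 34288 probes whose Cy5 signal stood well above background throughout 1 genotype or both, and 20 of the 23 clock probes were among them. No spot was saturated. The share of probes with Cy5 well above background was 62.7% to 66.2% on the wild-type arrays and 56.7% to 60.2% on the PRA transgenic arrays. Each gene was represented by its brightest kept probe, which gave 9 tested genes, and Npas2, with no kept probe, was not tested. In whole glands, fewer cells of a type and less RNA per cell cannot be told apart.

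None of the 9 tested clock genes passed an adjusted p of 0.05, a level that 0.0117% of all probes reached. Arntl and Cry1 were higher and Dbp lower in PRA transgenic glands with no overlap between the animals of the genotypes, which is 3 of 9 genes against 9.95% of all probes. At an unadjusted p under 0.05 stood 5 of the 9 genes, namely Arntl and Cry1 on the higher side and Per1, Per3 and Dbp on the lower side, against 9.02% of all probes (4.54% higher and 4.48% lower). The median size of the log2 difference, sign disregarded, was 0.57 for the 9 genes and 0.17 for all probes. The count of 5 fell to 2 without wild-type replicate 1, against 8.25% of all probes, and to 3 without wild-type replicate 3 or any of PRA transgenic replicates 1, 2 and 3, against 6.65% to 8.80%. The count of genes without overlap was 5 without wild-type replicate 2, against 17.6% of all probes, and 6 without PRA transgenic replicate 4, against 19.6%.

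**Figure D1:**
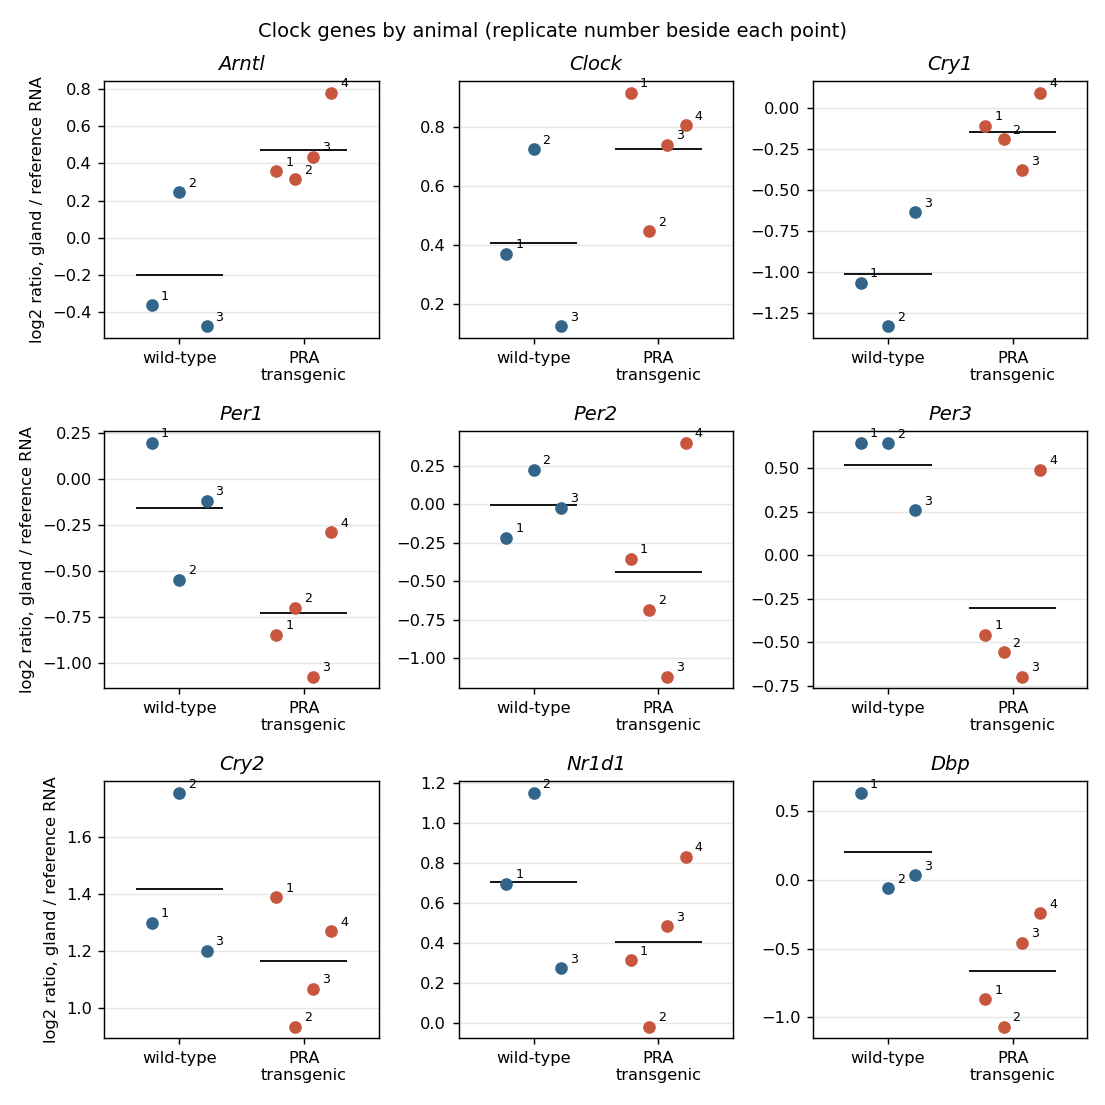
Log2 ratio of gland to reference RNA (vertical axis, a scale of its own in each panel) of the 9 tested clock genes in each animal, wild-type in blue and PRA transgenic in red, with the replicate number beside each point and the genotype mean as a line. For Arntl and Cry1 all 4 red points lie above the blue ones, and for Dbp all 4 lie below.

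Arntl encodes BMAL1, the activator without which the clock stops. Its brightest probe (A_52_P267651, chr7:120456978-120457037 of mm9, plus strand) gave log2 ratios of -0.36, 0.25 and -0.48 in wild-type replicates 1 to 3 and of 0.36, 0.31, 0.44 and 0.78 in PRA transgenic replicates 1 to 4. The highest wild-type gland lay just under the lowest transgenic gland. The log2 difference was 0.67 (SE 0.21, adjusted p = 0.453), or 1.59-fold. Its unadjusted limma p was above 0.05 without wild-type replicate 1 (0.0557) or 3 (0.0589) and with the replicate number as a block (0.0624). Arntl has 3 probes, and they are printed here because all of them gave the same direction, with log2 differences of 0.67, 0.78 and 1.25 and unadjusted limma p of 0.0154, 0.0138 and 0.0123 in the order shown. The coordinates of the last span more than its 60 bases, so it joins stretches that lie apart in the genome. The exons under the probes were not analysed here, since no annotation of mm9 was used.
A_52_P267651: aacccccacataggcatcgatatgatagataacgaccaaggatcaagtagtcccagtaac
A_55_P2735445: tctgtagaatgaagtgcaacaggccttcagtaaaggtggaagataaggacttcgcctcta
A_66_P127371: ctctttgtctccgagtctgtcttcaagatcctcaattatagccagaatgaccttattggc

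The second probe (chr7:120439030-120439089) gave -0.0001, 0.71 and -0.09 in wild-type and 1.05, 1.28, 0.64 and 1.00 in PRA transgenic glands. Wild-type replicate 2 overlapped the transgenic animals here. For the third probe (chr7:120435023-120436706) the log2 ratios were -0.95, 0.62 and -0.25 in wild-type and 1.60, 0.85, 0.95 and 0.83 in PRA transgenic glands, without overlap. In each of the 3 probes wild-type replicate 2 was the highest wild-type gland. In Cy5 alone the brightest probe differed by 0.77, and the Cy3 reference differed by 0.11.

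Clock and Npas2 encode the partners of BMAL1. Clock (A_55_P2746404, chr5:76639992-76640051, minus strand) had log2 ratios of 0.37, 0.73 and 0.12 in wild-type and 0.92, 0.45, 0.74 and 0.81 in PRA transgenic glands, and the genotypes overlapped. Its log2 difference was 0.32 (SE 0.19, limma adjusted p = 0.660), with a 95% interval of -0.11 to 0.76 that spans both signs. The 2 remaining kept Clock probes gave -0.19 and 0.11, and 1 more was not kept. The Clock difference was 0.0142 with the median over the kept probes and 0.18 without wild-type replicate 3. Without wild-type replicate 2 it was 0.48, with an unadjusted limma p of 0.0362 (adjusted p = 0.663). Npas2 (A_52_P534749, chr1:39418941-39419000, plus strand) was dim. Its Cy5 signal cleared the background on 1 of 3 arrays in wild-type and on 3 of 4 in PRA transgenic glands, and its Cy3 signal on 1 array. Its log2 ratios were -0.38, -0.16 and 1.51 in wild-type and 0.30, 0.83, 1.44 and -0.21 in PRA transgenic glands. With both channels this close to background, no difference between genotypes is given for Npas2.

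The Period genes encode the proteins that, with CRY, hold back the activators. Per1 (A_55_P1970033, chr11:68923364-68923423, plus strand) had log2 ratios of 0.20, -0.55 and -0.12 in wild-type and -0.85, -0.70, -1.08 and -0.29 in PRA transgenic glands. Wild-type replicate 2 lay within the transgenic range and the other wild-type glands above it. The log2 difference was -0.57 (SE 0.24, unadjusted p = 0.0498, adjusted p = 0.554). Its unadjusted p was above 0.05 in Cy5 alone, with no filter on dim probes, and under the authors' unpaired t-test. The same held without any one of wild-type replicates 1 and 3 and PRA transgenic replicates 1, 2 and 3. The second Per1 probe was not kept.

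Per3 (A_55_P2752088, chr4:150378473-150378532, minus strand) gave 0.65, 0.65 and 0.26 in wild-type and -0.46, -0.56, -0.70 and 0.49 in PRA transgenic glands. PRA transgenic replicates 1 to 3 lay well below every wild-type gland and replicate 4 among them. The log2 difference was -0.82 (SE 0.30, adjusted p = 0.491), and another probe gave -0.55. The remaining Per3 probe gave -0.80 but passed the filter only through the wild-type glands, where it is higher, with Cy5 clear of the background on 3 of 4 PRA transgenic arrays. Without PRA transgenic replicate 4 the difference of the first probe was -1.09. Its unadjusted limma p, 0.0275 with all arrays, was above 0.05 without any one of wild-type replicates 1 and 2 and PRA transgenic replicates 1, 2 and 3. Under the authors' unpaired t-test Per3 also stood above 0.05. Per2 (A_55_P2737144, chr1:93312595-93312654, minus strand) gave -0.22, 0.22 and -0.02 in wild-type and -0.35, -0.68, -1.12 and 0.40 in PRA transgenic glands. Here too replicates 1 to 3 of the transgenic group lay under the wild-type glands, and replicate 4 was the highest animal of all. The log2 difference of -0.43 (SE 0.34, adjusted p = 0.761, 95% interval -1.24 to 0.37) was within the spread. It was -0.71 without PRA transgenic replicate 4 and -0.21 without PRA transgenic replicate 3. A second, dimmer Per2 probe cleared the background in Cy5 in all 3 wild-type glands but in no transgenic gland, and in Cy3 on no array, so no difference is given for it.

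The cryptochromes went in opposite directions by sign. Cry1 (A_55_P2880103, chr10:84647094-84647153, minus strand) gave -1.06, -1.33 and -0.63 in wild-type and -0.11, -0.19, -0.38 and 0.09 in PRA transgenic glands. Every transgenic gland lay above every wild-type gland. The log2 difference was 0.87 (SE 0.20, adjusted p = 0.361), or 1.82-fold, with 0.64 in Cy5 alone and -0.21 in the reference, which was well above background on 5 arrays. After normexp background correction and loess it was 0.36. The other Cry1 probe differed by 0.49, with overlap, but its reference was well above background on only 3 arrays. Its Cy5 cleared the background on 3 of 4 PRA transgenic arrays, so the size of that difference is uncertain. Cry2 (A_55_P2016540, chr2:92243807-92243866, minus strand) gave 1.30, 1.76 and 1.20 in wild-type and 1.39, 0.93, 1.07 and 1.27 in PRA transgenic glands. These overlapped, and the log2 difference was -0.25 (SE 0.18, adjusted p = 0.736, 95% interval -0.69 to 0.18). Without wild-type replicate 2 it was -0.0854. The other Cry2 probes gave -0.34 and -0.21.

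Nr1d1 and Dbp are direct outputs of the activators. Nr1d1 (A_51_P223776, chr11:98630526-98631028, minus strand) gave 0.70, 1.15 and 0.28 in wild-type and 0.32, -0.02, 0.48 and 0.83 in PRA transgenic glands. The ranges overlapped widely, and the log2 difference was -0.30 (SE 0.27, adjusted p = 0.785, 95% interval -0.93 to 0.32). It was -0.0829 without wild-type replicate 2, -0.52 without wild-type replicate 3 and -0.16 without PRA transgenic replicate 2. Dbp (A_51_P180492, chr7:52965265-52965324, plus strand) gave 0.63, -0.06 and 0.03 in wild-type and -0.87, -1.07, -0.46 and -0.24 in PRA transgenic glands. All transgenic glands lay below all wild-type glands. The log2 difference was -0.86 (SE 0.26, adjusted p = 0.427), or 1.82-fold lower, and -0.86 in Cy5 alone, with 0.01 in the reference. The second Dbp probe differed by -0.99, again without overlap.

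**Figure D2:**
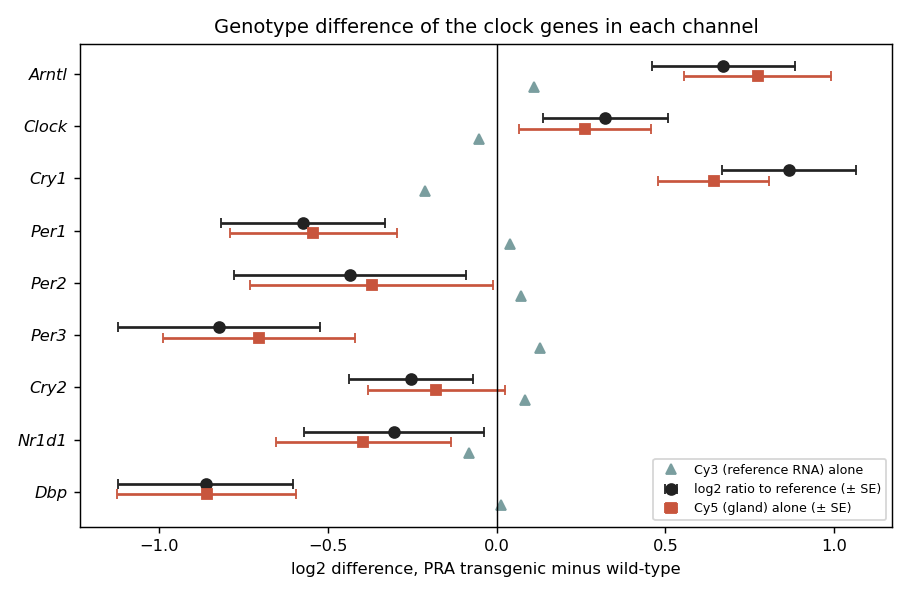
Log2 difference between genotypes (horizontal axis, PRA transgenic minus wild-type) of the 9 tested clock genes in the log2 ratio (black, with SE), in Cy5 alone (red, with SE) and in the Cy3 reference alone (blue-grey, no error drawn). Arntl, Clock and Cry1 lie to the right of 0 and the others to the left in both the ratio and Cy5 alone, while the reference lies between -0.21 and 0.13.

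The promoters of Per1, Per3 and Cry1 are shown because they hold the motifs through which the clock is known to act on its own genes. RefSeq promoters of GRCm38.p6, running from 250 bases before to 50 bases after a start, were held for 9 of the 10 genes (13 windows of 300 bases). They were searched on both strands for the E-box CACGTG, the D-box TTATGTAA or TTATGCAA, the ROR element core AGGTCA, the CRE TGACGTCA and the glucocorticoid element. The 250 bases before the start are printed 5′ to 3′ on the strand of the gene, with matches in capitals, and no match overlapped another. Per1 lies at chr11:69098699-69098948 on the plus strand, Per3 at chr4:151044666-151044915 on the minus strand and Cry1 at chr10:85185055-85185304 on the minus strand.
Per1: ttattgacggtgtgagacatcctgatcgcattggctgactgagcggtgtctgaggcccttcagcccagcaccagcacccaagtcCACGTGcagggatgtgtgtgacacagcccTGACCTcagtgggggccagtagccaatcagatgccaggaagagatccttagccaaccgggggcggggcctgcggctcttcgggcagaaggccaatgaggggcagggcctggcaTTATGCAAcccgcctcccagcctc
Per3: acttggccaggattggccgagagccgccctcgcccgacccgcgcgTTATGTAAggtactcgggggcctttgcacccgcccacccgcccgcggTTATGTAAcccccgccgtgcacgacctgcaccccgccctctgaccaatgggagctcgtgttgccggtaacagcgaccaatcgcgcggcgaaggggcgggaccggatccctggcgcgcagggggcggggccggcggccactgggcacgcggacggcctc
Cry1: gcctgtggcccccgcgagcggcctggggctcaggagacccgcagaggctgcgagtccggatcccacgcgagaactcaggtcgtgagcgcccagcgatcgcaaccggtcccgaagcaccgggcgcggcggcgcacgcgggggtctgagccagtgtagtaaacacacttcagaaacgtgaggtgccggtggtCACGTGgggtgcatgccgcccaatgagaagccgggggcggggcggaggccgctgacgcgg

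The E-box was found in 2 of the 13 windows, 1 each of Per1 and Cry1, and in 7.15% of all 32851 promoter windows. The D-box was found in 2 of the 13, once in Per1 and at 2 places in Per3, and in 1.66% of all windows. The ROR element core was found in 3 of the 13, of Per1, Arntl and Clock, and in 16.3% of all windows. No match to the CRE or the glucocorticoid element was found in these windows, against 1.79% and 0.475% of all. Per1 and Per3 had negative and Cry1 a positive log2 difference between genotypes. Whether these motifs bear on the differences was not tested. A match is a run of letters and not a binding site.

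Of 20 other genes of the clock and its outputs, 18 were tested and none passed the adjusted threshold. At an unadjusted p under 0.05, 2 were higher and 3 lower in PRA transgenic glands, against 4.54% and 4.48% of all probes, and the genotypes did not overlap for 1 on the higher and 4 on the lower side, against 5.42% and 4.53% of all probes. Fbxl21 is in both lower counts although its probe passed the filter through the wild-type glands alone, where its ratio is high, and without it they are 2 and 3. The median log2 difference of the 18 genes was -0.20, beside 0.02 for all probes.

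Nfil3 encodes E4BP4, which represses at the D-box sites that DBP activates. It gave log2 ratios of -1.82, -1.59 and -2.28 in wild-type and -0.40, -0.79, -0.70 and -0.93 in PRA transgenic glands. The genotypes were well apart, with a log2 difference of 1.20 (SE 0.20, adjusted p = 0.272), or 2.29-fold. Nr1d2, the close relative of Nr1d1, gave 1.13, 0.97 and 1.33 in wild-type and 0.10, 0.01, 0.02 and 0.53 in PRA transgenic glands. It was lower in every transgenic gland, with a log2 difference of -0.98 (SE 0.17, adjusted p = 0.295), or 1.97-fold. Tef, a relative of Dbp that binds the same sites, gave 0.38, 0.55 and 0.35 in wild-type and -0.37, -1.05, -0.41 and 0.20 in PRA transgenic glands. Again the animals did not overlap (log2 difference -0.84, SE 0.27, adjusted p = 0.462).

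Hlf, the remaining relative of Dbp, overlapped between genotypes (log2 difference -0.23, SE 0.27, adjusted p = 0.852) and had the opposite sign, 0.13, in Cy5 alone. With an array left out it ran from -0.39 without wild-type replicate 2 to -0.0347 without wild-type replicate 3, and it was -0.38 without PRA transgenic replicate 2 and -0.0510 without replicate 3. Bhlhe40 encodes DEC1, a repressor that competes for E-boxes. Its log2 ratios were -1.55, -1.62 and -1.39 in wild-type and -0.56, -0.78, -1.08 and -1.47 in PRA transgenic glands. Only PRA transgenic replicate 4 lay within the wild-type range (log2 difference 0.55, SE 0.22, adjusted p = 0.534). The unadjusted limma p of Bhlhe40, 0.0414, was 0.0586 to 0.109 without any single array other than PRA transgenic replicate 4. Csnk1e, a kinase that marks PER proteins, had a log2 difference of -0.34 (SE 0.16, adjusted p = 0.587) without overlap, but the median over its probes differed by 0.08. Fbxl21, part of a ligase for CRY proteins, cleared the background in Cy5 on 3 of 3 wild-type and 2 of 4 PRA transgenic arrays and in Cy3 on none, so its log2 difference of -1.18 rests on a reference signal at background and is not read as a difference between genotypes. In Cy5 alone it was -0.08, and the reference differed by 1.11. Ciart, a repressor of the activator pair, was well above background on 2 arrays and was not tested.

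**Figure D3:**
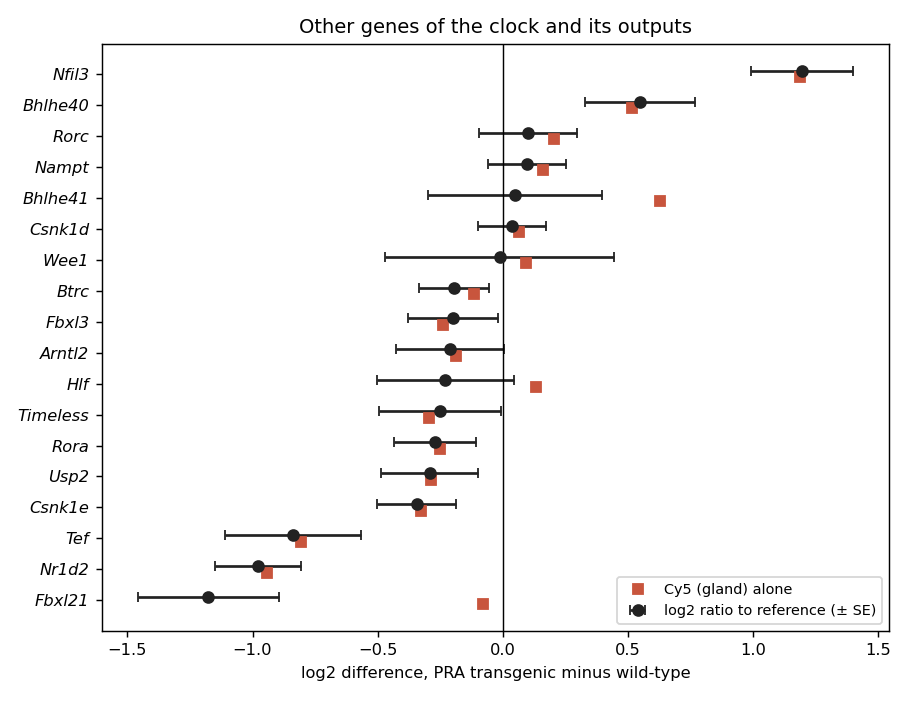
Log2 difference between genotypes (horizontal axis, PRA transgenic minus wild-type) of the 18 tested other clock genes, in the log2 ratio (black, with SE) and in Cy5 alone (red, no error drawn). Nfil3 lies farthest to the right at 1.20, and Fbxl21 is far to the left in the ratio at -1.18 but near 0 in Cy5 alone.

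The animals of one genotype also differed among themselves. PRA transgenic replicate 4 was the highest transgenic gland for 7 of the 9 tested clock genes, all except Clock and Cry2, and the lowest for none. In wild-type, replicate 2 was the highest for 5 genes (Arntl, Clock, Per2, Cry2 and Nr1d1) and replicate 3 the lowest for 5. The SD within genotype was above the median of all probes (0.27) for 7 of the 9 genes, and Per2 had the widest spread among them, with an SD of 0.52 at percentile 81.0 of all probes. Clock and Cry2 had the narrowest, at percentiles 45.6 and 44.9.

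Whether the activator and its targets stood opposite each other from animal to animal was examined by correlating the 9 other genes with Arntl over the 7 glands. Clock followed Arntl (Pearson r = 0.84, exact permutation p = 0.0147, adjusted over 9 relations 0.132, Spearman rho = 0.86, p = 0.0238), but r was 0.32 without wild-type replicates 1 and 3, the glands farthest from the median of Arntl, and 0.42 with the median over the kept probes of each gene. No relation of the log2 ratios passed after adjustment. Coefficients were negative for 6 genes, among them Per1 (r = -0.63, p = 0.135) and Dbp (r = -0.60, p = 0.159). Without wild-type replicates 1 and 3, which leaves 1 wild-type gland, they were positive for Per1 (0.50), Per2 (0.36), Dbp (0.29) and Per3 (0.27). For Per2, whose r over all glands was -0.0326, the sign also turned without wild-type replicate 3, PRA transgenic replicate 2 or PRA transgenic replicate 3 alone. On values centred on the mean of their genotype the coefficient was negative for 3 genes only, and it turned positive for Cry2 (r = 0.77, p = 0.132), Per3 (r = 0.65, p = 0.0694), Per2 (r = 0.59, p = 0.104) and Dbp (r = 0.12, p = 0.799), each by exact permutation within genotype. For Cry1 it turned from positive (r = 0.60, exact permutation p = 0.150) to negative (r = -0.39, exact permutation p = 0.583). Nr1d1 had r = 0.17 (p = 0.715) over all glands and r = 0.91 (exact permutation p = 0.00694, adjusted 0.0625) on centred values. That p is the smallest that the 144 pairings within genotype allow, so a single relation of 9 could not have passed after adjustment. Each genotype has too few animals for a correlation of its own. Npas2 is counted among the 6 and among the 3, but on 3 of the 7 arrays the Cy5 signal of its probe did not clear the background. Without Npas2, 5 of 8 coefficients were negative over all glands and 2 of 8 on centred values.

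**Figure D4:**
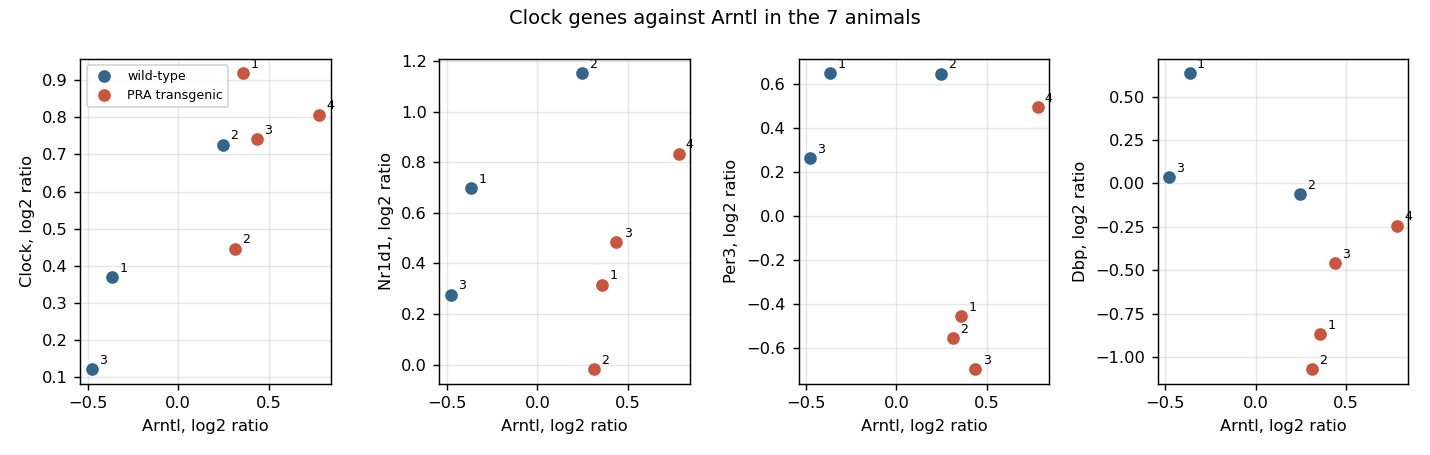
Log2 ratio of Clock, Nr1d1, Per3 and Dbp (vertical axes) against that of Arntl (horizontal axis) in each of the 7 animals, wild-type in blue and PRA transgenic in red, with replicate numbers. PRA transgenic replicates 1 to 3 lie below all wild-type animals for Per3, while replicate 4, the highest for Arntl at 0.78, lies at 0.49.

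The probes that followed Arntl most closely over the 7 arrays, of 24649 compared, were those of Arhgap12, Lce1a2 and Acad12 (r = 0.98 each), and those nearest to Dbp were of AK142979 and Fam222b (r = 0.99 each) and Sept11 (r = 0.97). These are given as a description, since among so many probes high coefficients occur with 7 arrays.

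Genes that respond to other signals were set beside the clock genes, because Per1 is also known to be induced by glucocorticoids and by the signals that induce immediate-early genes. Of 10 glucocorticoid-responsive genes, 9 had a lower mean in PRA transgenic glands, with a median log2 difference of -0.24 and none past the adjusted threshold. The 2 at an unadjusted p under 0.05, against 4.48% of all probes on the lower side and named after their values were seen, were Ddit4 (-0.97, adjusted p = 0.425) and Pdk4 (-0.78, adjusted p = 0.379). The authors list Ddit4 and Pdk4 as lower in these glands and as regulated by the progesterone receptor in a human breast cancer cell line. The count of 2 is not independent of that list, and the part of either receptor in these 2 genes was not tested. Fkbp5 and Tsc22d3, widely used readouts of the glucocorticoid receptor, differed by -0.07 and -0.23 (adjusted p = 0.956 and 0.892). All 8 immediate-early genes had a lower mean in PRA transgenic glands, 6 of them at an unadjusted p under 0.05, against 4.48% of all probes, and 5 without overlap, against 4.53%. None passed the adjusted threshold, the lowest adjusted p in limma being 0.391. The authors had already reported Egr1, Egr3, Fosb, Junb, Nr4a1 and Ier2 as lower in these same glands. The counts of this list are therefore not independent of that report. The mean log2 ratio of these 8 genes was -1.78, -1.54 and -1.16 in wild-type and -2.49, -2.23, -2.46 and -2.22 in PRA transgenic glands, so that every transgenic gland lay below every wild-type gland, as for Dbp. The part of these signals in the values of the clock genes was not tested.

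Markers of other tissues differed between animals. The mean log2 ratio of the skeletal muscle markers was 1.78, -1.31 and 3.30 in wild-type and -1.01, -0.997, -1.11 and 2.40 in PRA transgenic glands. Their summed Cy5 signal was 12766, 1020 and 72539 in wild-type and 1178, 1736, 1092 and 23764 in PRA transgenic glands. The Tnni2 probe was the brightest. Muscle markers were thus high in PRA transgenic replicate 4, the gland in which most clock genes were highest among the transgenic animals. In wild-type they were low in replicate 2, the highest wild-type gland for 5 of the 9 clock genes. They were highest in wild-type replicate 3, the lowest wild-type gland for 5 of the 9, and also high in wild-type replicate 1. Of the 9 muscle markers 8 were tested. Past the adjusted threshold were 0, against 0.0117% of all probes, and past the unadjusted one 0, against 9.02%. Lymphocyte markers stood apart in wild-type replicate 1, at 1.23 against -1.59 to -1.26 elsewhere. Their summed signal was 6893 there and 1164 to 1228 elsewhere, with the Cd3e probe the brightest.

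Without wild-type replicate 1 and PRA transgenic replicate 4, a choice made after seeing the data, the log2 difference was 0.49 for Arntl, 0.76 for Cry1, -0.54 for Per1, -0.82 for Per2, -1.02 for Per3 and -0.78 for Dbp. The unadjusted threshold was then passed by 5 of 9 clock genes, against 10.7% of all probes, but not by the same 5. Arntl was no longer among them, and Per2 was. The genotypes did not overlap for 6 of the 9 genes, against 29.2% of all probes. Wild-type replicate 3, the gland with the highest muscle markers (mean log2 ratio 3.30), was kept in this choice. PRA transgenic replicate 4 was the highest transgenic gland for each gene whose difference is given, so leaving it out lowered the transgenic mean. Markers of the labelled tissue were present, with all 7 luminal, all 6 basal and all 7 adipocyte markers kept. The mean adipocyte log2 ratio was 5.78, 5.93 and 5.58 in wild-type and 6.33, 5.71, 5.91 and 5.95 in PRA transgenic glands, with overlap. The Fabp4 probe was the brightest. All 7 adipocyte markers had a higher mean ratio in PRA transgenic glands, 0 past the adjusted threshold. At an unadjusted p under 0.05 stood 1, Lipe, against 4.54% of all probes, and 2, Plin1 and Lipe, did not overlap, against 5.42%. In Cy5 alone only Cfd (0.27) and Lipe (0.31) were higher. There Adipoq differed by -0.01, Plin1 by -0.09, Lep by -0.07, Fabp4 by -0.16 and Cidec by -0.23. The luminal mean was 3.46, 2.76 and 3.00 in wild-type and 3.23, 3.09, 2.63 and 3.02 in PRA transgenic glands. The basal mean ran from 2.52 to 2.94 and the endothelial mean from 4.96 to 5.62 over all glands.

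**Figure D5:**
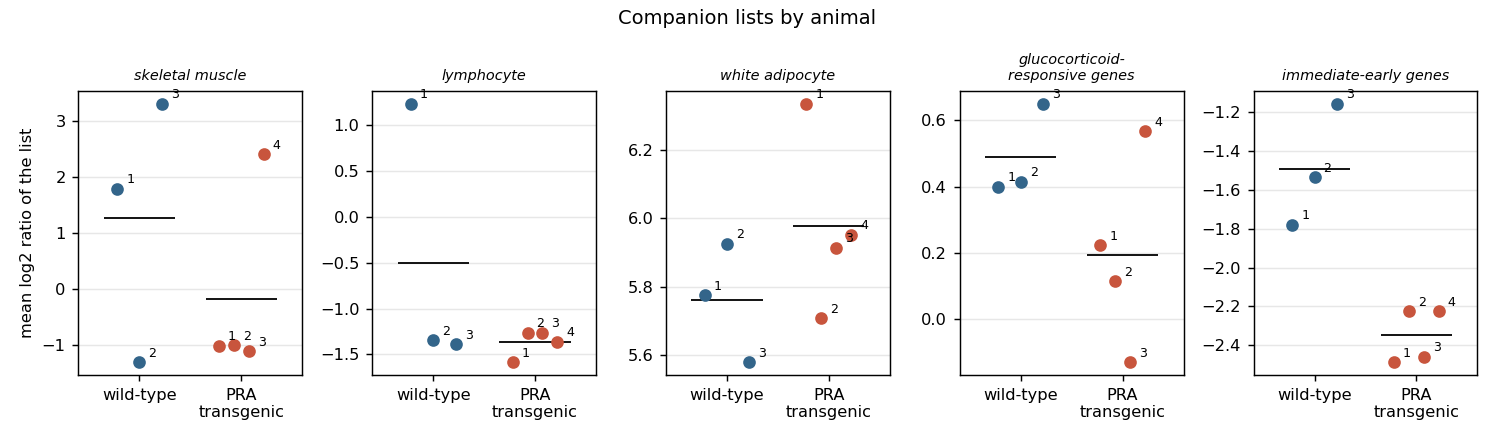
Mean log2 ratio (vertical axis, a scale of its own in each panel) of skeletal muscle, lymphocyte and white adipocyte markers and of glucocorticoid-responsive and immediate-early genes in each animal, wild-type in blue and PRA transgenic in red, with replicate numbers and the genotype mean as a line. Muscle markers are high in wild-type replicates 1 and 3 and PRA transgenic replicate 4, and the immediate-early genes are lower in all 4 transgenic glands, from -2.49 to -2.22.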

How the data were processed

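The authors extracted spot values with Agilent Feature Extraction (12.0 by the submitters' processing notes, 11.5.1.1 by the file headers) and deposited 1 file per array, in which the processed intensity of each dye is corrected for background and normalized between dyes. The flags for signals well above background, saturation and outliers come from the same deposited files. The authors also deposited a value table, which was checked against the arrays and holds the same log2 ratio after subtraction of each probe's median. It served as an alternative.

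From the processed intensities log2(Cy5/Cy3) was computed per spot, leaving out controls and outliers, and averaged per probe. A probe was kept where Cy5 cleared the background, by the majority of its spots, on each array of 1 genotype or both. Of 6 ways tried to combine the flags of repeated spots, which kept 34283 to 34289 probes, this one was chosen because its 34288 was the number known from an earlier analysis. The genotype test was limma (version 3.58.1, lmFit followed by eBayes, under R 4.3.3), adjusted by Benjamini-Hochberg over the kept probes, and correlations were tested by exact permutation (scipy 1.17.1). These steps were tested on simulated data.

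The members and gene lists were chosen with earlier results of these data known. Named were all members, other clock genes with an unadjusted p under 0.05 or without overlap, Nr1d2, Tef, Hlf, Bhlhe40, Nfil3 and Ciart in any case, and for Arntl and Dbp the 3 genes most like each. Alternatives were normexp (offset 50) with loess, the value table, no filter or both channels above background on all arrays, Cy5 alone (scaled to percentile 75), quantile normalization, the methods' t-test, the median over probes, the replicate number as a block, and each array left out. Conditions and replicate numbers came from the labels. The deposited file of wild-type replicate 3 carries the number 4 in its name, and the label was used. Nothing states that RNA was extracted or labeled on separate days, so p-values measure the spread between these 7 animals and arrays, whose number limits the precision. Probes are placed on mm9, as in the files.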

Additional observations from a re-analysis of the deposited data

Results flagged for a closer look

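Of 36 sets of 4 PRA transgenic glands examined for a gland far from the rest, 2 were picked out, beside 1.8 expected by chance at about 1 in 20. Btrc, part of the ligase that degrades PER proteins, had a log2 ratio of 0.52 in PRA transgenic replicate 2 and of 0.84 to 0.88 in the remaining glands, a gap of 0.894 of the range. Skeletal muscle markers had a mean log2 ratio of 2.40 in PRA transgenic replicate 4 and of -1.11 to -0.997 in the remaining glands, a gap of 0.969 of the range.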

How the results depend on the processing

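The log2 differences of the 9 tested clock genes kept their sign in all 143 values from the alternatives, and none of these genes passed the adjusted threshold under any of them. The 4 probes past the adjusted threshold over the whole array became 15 with no filter on dim probes, 1 under the methods' t-test, 0 with the replicate number as a block, and 0 without wild-type replicate 1 and PRA transgenic replicate 4, an alternative added after seeing the data. With each array left out in turn the lowest was 1, when PRA transgenic replicate 3 was out, and the highest 12, when it was replicate 4, and it was 2 when wild-type replicate 3 was out. With no filter 5154 probes, in place of 3094, had an unadjusted p under 0.05. The number of clock genes at that level, 5, was 3 under the methods' t-test, against 9.21% of all probes, and with an array left out ran from 2 without wild-type replicate 1 (8.25%) to 6 without PRA transgenic replicate 4 (12.3%). The number without overlap, 3 of 9, was 2 of the 8 whose probes cleared the background in each channel of every array, against 9.91% of all probes, 3 to 6 with an array left out, against 12.4% to 19.6% of all probes, and 6 in the added alternative, against 29.2%. Of the other clock genes, 5 had an unadjusted p under 0.05, and with an array left out 3 (without wild-type replicate 2, against 7.35% of all probes) to 6 (without PRA transgenic replicate 4, against 12.3%). For 5 of the 18 the genotypes did not overlap, and for 9 in the added alternative, against 29.2% of all probes. These counts include Fbxl21, which passed the filter through the wild-type glands alone. Among the other 17 genes with all arrays, 2 were higher and 2 lower at an unadjusted p under 0.05, against 4.54% and 4.48% of all probes. The genotypes did not overlap for 1 on the higher and 3 on the lower side, against 5.42% and 4.53%. The number of negative correlations with Arntl, 6 of 9, was 3 of 9 on centred values. Over the 8 genes other than Npas2 it was 5 with all arrays, 2 on centred values and 1 without wild-type replicates 1 and 3. With an array left out it was 3 to 6, with 3 without PRA transgenic replicate 2 or 3. The cause of these shifts was not tested, except that the filter changed how many probes were tested.

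Signs turned for Csnk1e with the median over probes (0.0784) and for Hlf in Cy5 alone (0.13). Of 122 correlation values, 19 had the opposite sign. In Cy5 alone r was 0.91 for Npas2, whose probe was not well above background on 3 of 7 arrays and whose value supports nothing, 0.0298 for Per2, 0.0837 for Cry2 and -0.0661 for Nr1d1. With the median over probes it was 0.0329 for Cry2 and -0.0753 for Nr1d1. On centred values it was 0.59 for Per2, 0.65 for Per3, -0.39 for Cry1, 0.77 for Cry2 and 0.12 for Dbp. With an array left out r ranged from -0.52 to 0.22 for Per2, from -0.134 to 0.0713 for Cry2 and from -0.0398 to 0.321 for Nr1d1. Among genes with a kept probe the adjusted threshold was passed only by Clock without PRA transgenic replicate 1 (r = 0.89, adjusted exact permutation p = 0.0444), whose r was 0.42 (adjusted 0.467) with the median over probes.

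The replicate numbers did not pair the samples. Deviations of same-numbered arrays correlated at 0.10, -0.30 and 0.04, and with the replicate number as a block 0 probes passed the adjusted threshold and 9.83% the unadjusted one. Only the PRA transgenic group has a replicate 4, so under the block that array adds nothing to the genotype difference. For Arntl the difference was 0.57 both with the block and without PRA transgenic replicate 4. A block for slide could not be fitted with 1 slide. Arrays limit these comparisons in number, and dim probes such as those of Npas2, Cry1 and Fbxl21 in signal over background.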
